A study of Homo sapiens with 12 samples.

Results

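Genes of steroid conversion (SRD5A1, SRD5A3, HSD17B10, HSD17B11, HSD3B1, AKR1C1, AKR1C2, AKR1C3, STS and SULT2B1) were followed in LNCaP cells, an androgen-responsive line from a lymph node metastasis of a prostate carcinoma. They were chosen by name as reductases, dehydrogenases and sulfate-handling enzymes of steroids, and they are 10 of the 34643 gene symbols in the RNA-seq table. Of the 10, 8 were abundant enough to be tested together with the other genes (15419 tested in all), and HSD3B1 and AKR1C3 were not. The cells carried either a scrambled short hairpin RNA (sh_scramble) or one aimed at TMEFF2 (sh_TMEFF2), each expressed from the U6 promoter of a puromycin-selected lentivirus, and were used about 2.5 weeks after transduction. After 24 h in charcoal-stripped serum, which removes steroids, they received 10 nM of the androgen dihydrotestosterone (+DHT) or ethanol (−DHT) for 24 h. The 4 groups, both lines with and without DHT, had 3 libraries each, from 3 separate treatments. Those treatments came from 2 transductions, and which library came from which is not stated, nor which TMEFF2 hairpin the sequenced cells carried. The libraries held 19450866 to 22612046 estimated counts each.

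Prostate cells can make active androgen from circulating precursors. Steroid sulfatase (STS) frees dehydroepiandrosterone and other steroids from their sulfates, and the sulfotransferase SULT2B1 adds sulfate to sterols of the same kind. HSD3B1 converts dehydroepiandrosterone to androstenedione, the 17-ketosteroid reductase AKR1C3 makes testosterone from androstenedione, and SRD5A1 reduces testosterone and androstenedione at the A ring, the step that leads to DHT. AKR1C1 and AKR1C2 reduce DHT further to weak diols, and HSD17B10 and HSD17B11 oxidise such diols and other hydroxysteroids. SRD5A3 belongs to the reductase family by sequence, and its established role is the reduction of polyprenol to dolichol for protein glycosylation. Several of these enzymes work in both directions or on substrates other than steroids, and a transcript level is not an enzyme activity.

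The genes lay at 2 very different levels. With counts scaled to library size (CPM) and divided by the merged exon length of each gene, HSD17B10 was the most abundant in sh_scramble −DHT at 22.1 ± 1.76 CPM per kb (SD, n = 3). SRD5A1 followed at 7.51 ± 0.114 and SRD5A3 at 6.09 ± 0.198 CPM per kb. HSD17B11 had 3.45 ± 0.175, SULT2B1 2.92 ± 0.504 and STS 1.17 ± 0.0515 CPM per kb. HSD3B1, AKR1C2, AKR1C1 and AKR1C3 stood far below, at 0.195 ± 0.195, 0.120 ± 0.0356, 0.0751 ± 0.0434 and 0.0504 ± 0.0105 CPM per kb. The libraries of HSD17B11 and SULT2B1 overlapped on this scale, as did those of each neighbouring pair among the 4 lowest genes. With the longest protein-coding transcript as the length, 3 neighbouring pairs changed places (SRD5A1 with SRD5A3, HSD17B11 with SULT2B1, AKR1C1 with AKR1C3), and the gap between the 6 higher and the 4 lower genes remained. The authors' estimated counts already carried a length scaling of their own, so these levels rank genes only roughly.

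**Figure D1:**
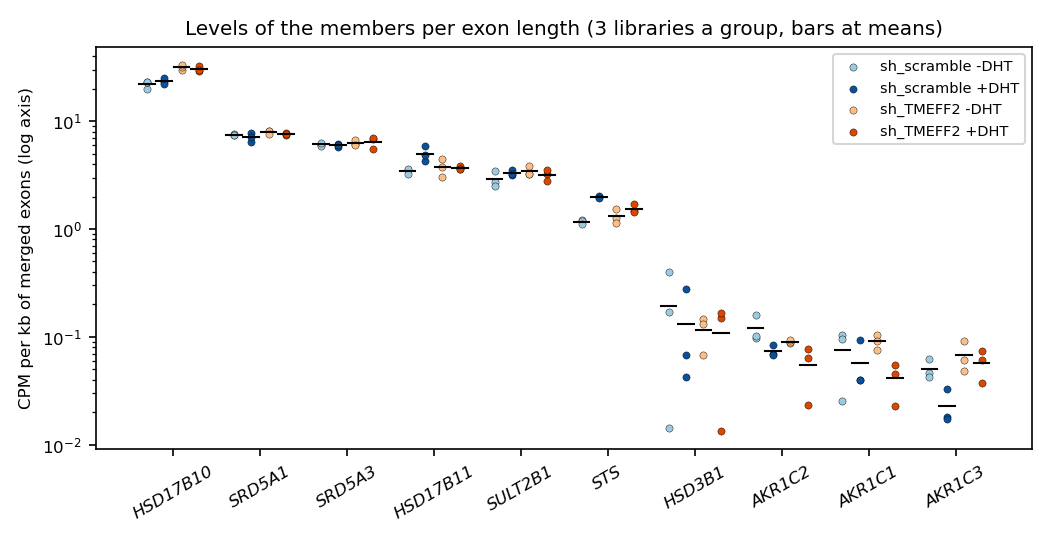
Levels of the 10 genes in CPM per kb of merged exons on a log axis, with 1 point for each library, 3 libraries a group and a bar at each group mean. HSD17B10 lies highest at about 22.1 to 31.5 CPM per kb in the 4 groups, and HSD3B1 and the AKR1C genes lie below the 6 other genes in every group.

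TMEFF2, the gene the hairpin aims at, stood at 77.8, 73.8 and 103 CPM in sh_scramble −DHT and at 68.6, 39.4 and 81.7 CPM in sh_TMEFF2 −DHT. With DHT it stood at 173, 117 and 170 CPM in sh_scramble and at 142, 90.1 and 114 CPM in sh_TMEFF2. The sh_TMEFF2 libraries were lower on average and overlapped the sh_scramble libraries at both DHT levels. The log2 difference was −0.43 (SE 0.25) without DHT and −0.41 (SE 0.25) with it, with adjusted p-values of 0.503 and 0.304 from edgeR's quasi-likelihood test. KLK3, the prostate-specific antigen gene, rose with DHT in both lines, 3.89-fold in sh_scramble (from 1925 ± 26.5 to 7495 ± 261 CPM; SD, n = 3) and 5.47-fold in sh_TMEFF2 (from 356 ± 134 to 1949 ± 511 CPM). Its level was 5.40-fold lower in sh_TMEFF2 than in sh_scramble without DHT and 3.85-fold lower with it, and the difference of the DHT responses did not pass (log2 0.49, SE 0.30, adjusted p = 0.459). FKBP5, a chaperone gene induced by androgen, rose 10.4-fold in sh_scramble and 1.85-fold in sh_TMEFF2. Its difference of the DHT responses passed (log2 −2.50, SE 0.21, adjusted p = 8.4e-05). TMPRSS2, an androgen-induced protease gene, rose 7.84-fold in sh_scramble, and its 1.63-fold difference in sh_TMEFF2 did not pass (adjusted p = 0.368), nor did the difference of the DHT responses (log2 −2.27, SE 0.66, adjusted p = 0.0737).

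STS was the only one of the 8 tested genes that was called in any comparison. It rose with DHT in sh_scramble, from 14.8, 14.7 and 13.6 CPM in the 3 vehicle libraries to 24.6, 24.8 and 24.0 CPM in the 3 DHT libraries. The DHT libraries lay within 1 CPM of each other and far above every vehicle library. The rise was 1.70-fold (log2 0.77, SE 0.11, 95% interval 0.52 to 1.01), with an adjusted p of 0.000301. A call needed a change of 1.5-fold or more in either direction together with an adjusted p (Benjamini-Hochberg, all tested genes) no higher than 0.05. By this rule 5.45% of all tested genes were called higher with DHT in sh_scramble and 6.45% lower, against 1 of these 8 higher and 0 lower, so a single call is near the share of all genes.

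In sh_TMEFF2 the same gene stood at 15.7, 18.8 and 14.0 CPM without DHT and at 18.1, 21.2 and 17.8 CPM with it. The groups overlapped, since the highest vehicle library lay above 2 of the DHT libraries. The difference was 1.17-fold (log2 0.23, SE 0.11, interval −0.01 to 0.48, adjusted p = 0.206). The test of the difference between both DHT responses gave a log2 value of −0.53 (SE 0.16, interval −0.88 to −0.19), with an unadjusted p of 0.00556 and an adjusted p of 0.0809. It therefore did not pass in the main fit. It passed with DESeq2 (adjusted p = 0.0432), with the replicate number as a block (0.0355) and without the third sh_TMEFF2 −DHT library (0.0408), and the adjusted p ranged from 0.0355 to 0.185 over the 21 alternatives. Between the lines, STS was lower in sh_TMEFF2 than in sh_scramble with DHT, with no overlap (1.29-fold, log2 −0.36, SE 0.11, adjusted p = 0.0445). That difference was under the fold limit, and 9.09% of all genes were lower at an adjusted p of 0.05 or less in that comparison. Its adjusted p ranged from 0.0172 to 0.156 over 22 alternatives, of which 8 were at or under 0.05. Without DHT the lines overlapped (log2 0.17, SE 0.11, adjusted p = 0.573).

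The genes whose pattern over the 12 libraries was most like that of STS were ELOVL1, AC010642.1 and AP2S1. Their centred log2 CPM differed from that of STS by a root mean square of 0.079, 0.094 and 0.094, against a standard deviation of 0.307 for STS itself over the same libraries.

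STS lies on the plus strand of chromosome X, from 7147237 to 7804358 in GRCh38, and its Ensembl canonical transcript has 11 exons. Because the gene moved with an androgen, the 250 bases before each of its 5 RefSeq starts (GRCh38.p14) were searched on both strands for AGAACA, the hexamer that stands in each arm of the palindromic steroid response element. The hexamer was present before 2 of the 5 starts, and in 4350 of 35116 promoters of that length genome-wide (12.4%). The 15-base palindrome with both arms and any 3 bases between them was before none of the 5 starts, and before 1 of the 35116. Both matches are shown with their flanks on the plus strand, in capitals where the hexamer or its reverse complement lies, at chrX:7147167-7147208 and chrX:7251994-7252018. Neither stretch overlaps an annotated exon, and counts summed per gene do not tell which start was used.
STS, 105 bases before the start at 7147290: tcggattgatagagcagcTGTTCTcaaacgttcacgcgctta
STS, 249 bases before the start at 7252244: tAGAACAaagaaattgttcaatttc
None of the other 9 genes had the hexamer in the 250 bases before any of their RefSeq starts. A match of 6 letters is a description of the sequence, not of binding.

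SULT2B1, which adds the sulfate that STS removes, did not pass in any comparison. It stood at 7.51, 9.49 and 6.85 CPM in sh_scramble −DHT and at 8.68, 9.69 and 8.79 CPM in sh_scramble +DHT. In sh_TMEFF2 it stood at 8.88, 10.6 and 8.78 CPM without DHT and at 8.85, 9.61 and 7.65 CPM with it. All 4 groups overlapped each other. The log2 difference with DHT was 0.19 (interval −0.13 to 0.51) in sh_scramble and −0.11 (interval −0.43 to 0.21) in sh_TMEFF2, so changes of 1.5-fold lie outside both intervals. The ratio of STS to SULT2B1 within a library, in CPM and not per length, was 1.83 ± 0.252 (SD, n = 3) in sh_scramble −DHT and 2.71 ± 0.138 in sh_scramble +DHT. In sh_TMEFF2 it was 1.72 ± 0.105 without DHT and 2.19 ± 0.140 with it. The DHT libraries had the higher ratio in both lines, with no overlap, and the ratio uses no scaling between libraries. SULT2B1 lies on the plus strand of chromosome 19, from 48552172 to 48599425.

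**Figure D2:**
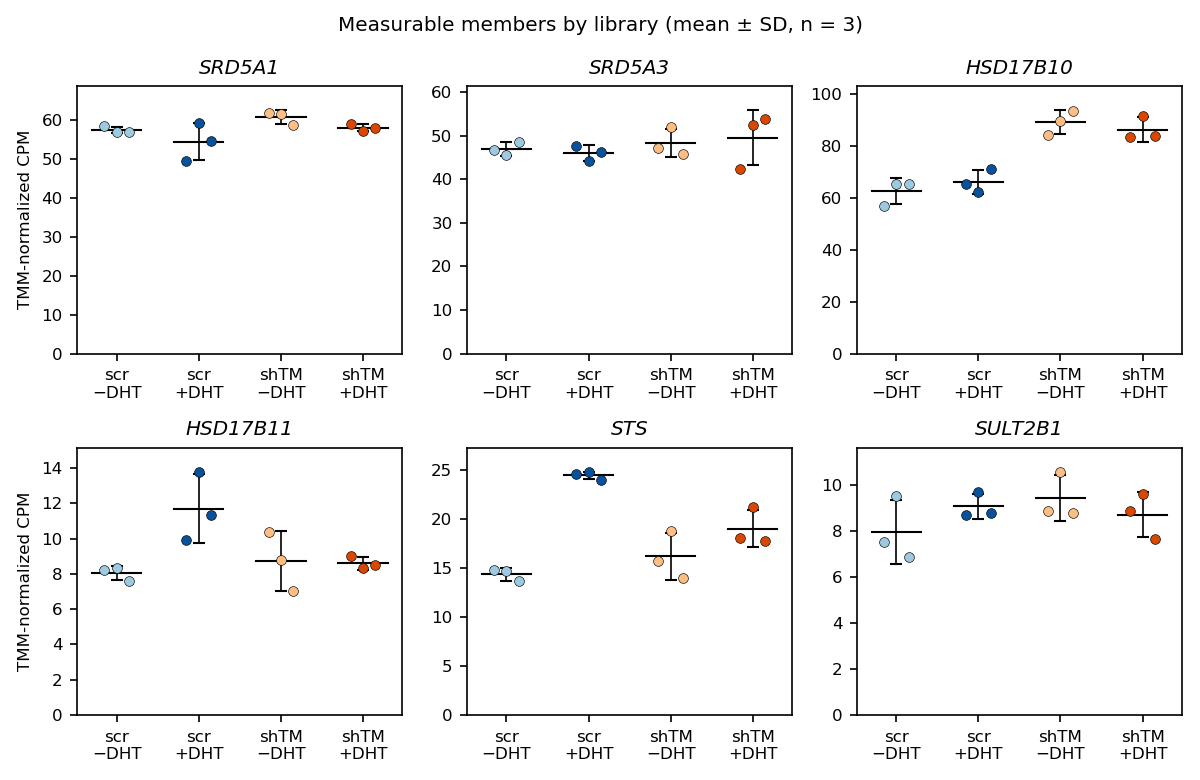
TMM-normalized CPM of the 6 measurable genes in each of the 12 libraries, with a line at the group mean and bars of 1 SD (n = 3); scr is sh_scramble and shTM is sh_TMEFF2, and each vertical axis starts at 0. STS is at about 24 CPM in all 3 sh_scramble +DHT libraries, HSD17B10 is at 83.2 CPM or more in all sh_TMEFF2 libraries, and SRD5A1 and SRD5A3 are level.

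HSD17B10 was higher in sh_TMEFF2 than in sh_scramble at both DHT levels by the adjusted p, and was not called. This mitochondrial enzyme oxidises hydroxysteroids and branched fatty acid intermediates, and its protein is also a part of mitochondrial RNase P. It stood at 56.7, 65.2 and 65.4 CPM in sh_scramble −DHT and at 65.2, 62.0 and 71.1 CPM in sh_scramble +DHT. In sh_TMEFF2 it stood at 84.0, 89.6 and 93.2 CPM without DHT and at 83.2, 91.6 and 83.5 CPM with it. Every sh_TMEFF2 library lay above every sh_scramble library. The difference was 1.42-fold without DHT (log2 0.51, SE 0.08, interval 0.34 to 0.68, adjusted p = 0.00989) and 1.30-fold with DHT (log2 0.38, SE 0.08, interval 0.21 to 0.55, adjusted p = 0.00570). Both passed the adjusted p and fell short of the 1.5-fold limit, and 0.623% of all genes were higher at an adjusted p of 0.05 or less without DHT and 6.93% with it. Over 22 alternatives the adjusted p without DHT was above 0.05 in 1, without the first sh_scramble −DHT library (0.0520), and the log2 difference stayed between 0.45 and 0.55. DHT made a log2 difference of 0.08 (interval −0.09 to 0.25) in sh_scramble and −0.05 (interval −0.22 to 0.12) in sh_TMEFF2. HSD17B10 is encoded on the minus strand of chromosome X (53431258 to 53434370).

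HSD17B11, an enzyme of the endoplasmic reticulum and lipid droplets that oxidises an androgen diol to androsterone, followed the pattern of STS in part. It stood at 8.21, 8.34 and 7.58 CPM in sh_scramble −DHT and at 9.95, 13.8 and 11.3 CPM in sh_scramble +DHT. In sh_TMEFF2 it stood at 10.4, 8.77 and 7.02 CPM without DHT and at 8.99, 8.32 and 8.48 CPM with it. The sh_scramble groups did not overlap, and the sh_TMEFF2 groups did. With DHT in sh_scramble the difference was 1.46-fold (log2 0.54, SE 0.16, interval 0.21 to 0.88, adjusted p = 0.0213), which passed the adjusted p, as 14.4% of all genes did on the higher side, and missed the fold limit. Without the first sh_scramble +DHT library it was called (log2 0.65, adjusted p = 0.0150), and over 22 alternatives the adjusted p ranged from 0.00919 to 0.229. In sh_TMEFF2 the log2 difference was −0.02 (SE 0.16, interval −0.36 to 0.32). With DHT it was lower in sh_TMEFF2 than in sh_scramble with no overlap (log2 −0.45, SE 0.15, interval −0.78 to −0.11), at an unadjusted p of 0.0134 and an adjusted p of 0.0706, which did not pass. The difference of the DHT responses was −0.56 (SE 0.22, interval −1.04 to −0.09), with an unadjusted p of 0.0246 and an adjusted p of 0.194, and was not called. HSD17B11 is encoded on the minus strand of chromosome 4 (87336515 to 87391188) and had 151 to 283 counts per library.

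SRD5A1 and SRD5A3 were level in all 4 groups. SRD5A1, the type 1 enzyme that makes DHT and related reduced steroids, stood at 58.3, 57.0 and 56.8 CPM in sh_scramble −DHT and at 49.4, 59.1 and 54.6 CPM in sh_scramble +DHT. In sh_TMEFF2 it stood at 61.8, 61.5 and 58.6 CPM without DHT and at 58.9, 57.0 and 57.9 CPM with it. The lines did not overlap without DHT, by 0.3 CPM, and the other comparisons overlapped. The largest log2 difference in a comparison of groups was 0.09 (sh_TMEFF2 against sh_scramble with DHT, SE 0.07, adjusted p = 0.415), and the 95% intervals of all 5 comparisons lay within 1.5-fold in either direction. SRD5A1 lies on the plus strand of chromosome 5, from 6633427 to 6674386.

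SRD5A3 stood at 46.7, 45.5 and 48.6 CPM in sh_scramble −DHT and at 47.6, 44.1 and 46.3 CPM in sh_scramble +DHT. In sh_TMEFF2 it stood at 47.1, 52.0 and 45.9 CPM without DHT and at 42.4, 52.4 and 53.9 CPM with it. All groups overlapped, and the sh_TMEFF2 +DHT libraries were the most spread. Its largest log2 difference was 0.11 (sh_TMEFF2 against sh_scramble with DHT, SE 0.09, adjusted p = 0.475), and all 5 intervals again lay within 1.5-fold. SRD5A3 lies on the plus strand of chromosome 4, from 55346213 to 55373100, and its exons overlap those of SRD5A3-AS1 on the other strand by up to 563 bases and those of ENSG00000288695 on the same strand by up to 703. Whether the counting used strand is not stated, and strand would not separate the second pair, so the split of these reads is uncertain. Shorter overlaps of exons exist on the same strand for HSD17B10 (117 bases), HSD17B11 (117) and STS (78, with MIR4767), and on the other strand for STS (31, with PUDP) and SULT2B1 (174). SRD5A2, the isoenzyme typical of normal prostate, had 0 to 2 counts per library and was not tested.

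The remaining 4 genes were at the edge of detection. HSD3B1, the enzyme that commits dehydroepiandrosterone to androgen synthesis, had 9.1, 19.1 and 0.7 estimated counts in sh_scramble −DHT and 3.3, 2.1 and 13.7 in sh_scramble +DHT. In sh_TMEFF2 it had 7.5, 3.7 and 6.9 counts without DHT and 0.7, 7.9 and 9.1 with it. The groups overlapped, and no test was made. HSD3B2, its close copy, had at most 1.0 count in a library. HSD3B1 lies on the plus strand of chromosome 1, from 119507198 to 119515054.

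AKR1C1, AKR1C2 and AKR1C3 lie side by side on chromosome 10, at 4963253 to 4983283, 4987775 to 5018031 and 5035354 to 5107686, AKR1C2 on the minus strand and the others on the plus strand. Their coding sequences are near copies of 969 bases each. AKR1C1 and AKR1C2 differ at 19 bases (98.0% identical) and share 66.8% of all stretches of 31 bases, so the split of reads between them is an estimate of the authors' software and uncertain. AKR1C3 is 91.4% identical to AKR1C1 and 91.0% to AKR1C2. A stretch of coding bases 103 to 162, in exon 2 of AKR1C1 at chr10:4965932-4965991 (GENCODE, GRCh38), shows how reads can and cannot be placed, with capitals at bases that differ from AKR1C1 (10 in AKR1C2 and 7 in AKR1C3). Most of the differences between the 2 closest genes fall in this one stretch.
AKR1C1: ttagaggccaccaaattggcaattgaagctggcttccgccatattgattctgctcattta
AKR1C2: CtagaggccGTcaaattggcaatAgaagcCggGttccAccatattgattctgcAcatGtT
AKR1C3: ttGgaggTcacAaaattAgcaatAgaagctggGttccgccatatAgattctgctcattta

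AKR1C1, which inactivates progesterone and DHT, had 20.4, 16.2 and 4.5 counts in sh_scramble −DHT and 16.1, 7.2 and 7.0 in sh_scramble +DHT. In sh_TMEFF2 it had 13.8, 20.7 and 17.5 counts without DHT and 10.4, 8.8 and 4.5 with it. The sh_TMEFF2 groups did not overlap, and the sh_scramble groups did. The log2 difference with DHT in sh_TMEFF2 was −1.12 (SE 0.50, interval −2.21 to −0.03), with an adjusted p of 0.171.

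AKR1C2, the main reductase of DHT to its weak diol, had 13.0, 12.1 and 20.0 counts in sh_scramble −DHT and 8.3, 10.5 and 8.3 in sh_scramble +DHT. In sh_TMEFF2 it had 11.1, 12.3 and 12.4 counts without DHT and 8.3, 10.3 and 3.2 with it. The DHT libraries had the lower level in both lines with no overlap, at log2 differences of −0.69 (SE 0.40, adjusted p = 0.224) and −0.75 (SE 0.42, adjusted p = 0.286), neither of which passed.

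AKR1C3, the testosterone-forming member, had 4.0, 3.2 and 5.0 counts in sh_scramble −DHT and 1.4, 1.4 and 2.6 in sh_scramble +DHT. In sh_TMEFF2 it had 5.0, 8.1 and 4.1 counts without DHT and 5.2, 6.3 and 3.3 with it. All 3 sh_scramble +DHT libraries lay under 3 counts, the floor used here, and no test was made. Summed over the 3 genes, which removes the uncertain split, a library held 29.6 to 37.4 counts without DHT and 17.8 to 25.8 with it in sh_scramble. In sh_TMEFF2 it held 29.9 to 41.1 without DHT and 11.0 to 25.4 with it. The DHT libraries were lower in both lines with no overlap. The log2 difference of the sum was −0.61 in sh_scramble (adjusted p = 0.171) and −0.82 in sh_TMEFF2 (adjusted p = 0.108), and neither passed.

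**Figure D3:**
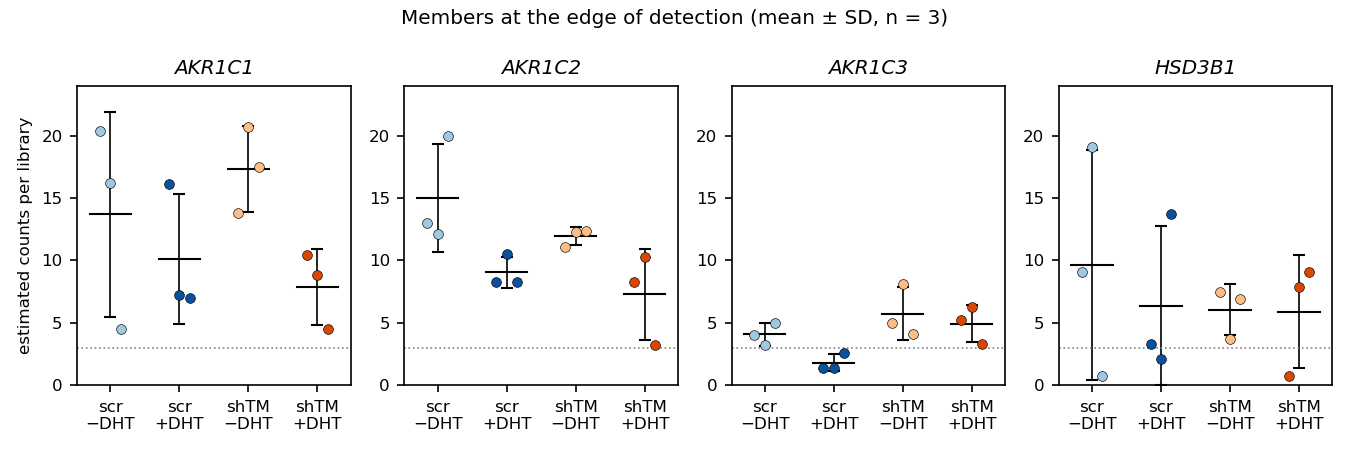
Estimated counts per library of AKR1C1, AKR1C2, AKR1C3 and HSD3B1 in the 4 groups, with a line at the mean, bars of 1 SD (n = 3; cut off at 0 for HSD3B1) and a dotted line at 3 counts; scr is sh_scramble and shTM is sh_TMEFF2. No library exceeds 20.7 counts for any of the 4 genes, and all 3 sh_scramble +DHT libraries of AKR1C3 lie under the dotted line.

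Over all comparisons, calls among the 8 tested genes were 1 for DHT in sh_scramble and 0 elsewhere. For DHT in sh_TMEFF2 the share of all genes called was 3.28% higher and 1.60% lower. For sh_TMEFF2 against sh_scramble it was 0.298% higher and 0.272% lower without DHT, and 3.03% higher and 3.74% lower with DHT. The calls without DHT, 46 higher and 42 lower, depended on single libraries. They fell to 14 and 18 without the first sh_scramble −DHT library and to 15 and 19 without the second. For the difference of the DHT responses, called on the adjusted p alone, the share of all genes was 1.65% higher and 3.29% lower. With 8 genes, a count of 0 is near all of these shares. At an unadjusted p of 0.05 the number of the 8 genes past it was 2, 1, 1, 3 and 2 in the same order of the 5 comparisons, against 38.7%, 27.2%, 13.5%, 29.2% and 17.5% of all genes tested. These counts are near what those shares give for 8 genes. Their median log2 difference was 0.03, −0.06, 0.14, −0.21 and −0.21, against medians of −0.01, −0.02, −0.00, 0.00 and 0.01 over all genes tested. DESeq2 called 1, 0, 0, 0 and 1 of the 8 genes. For the difference of the DHT responses it called 479 of the 15419 tested genes higher and 726 lower, against 254 and 507 in the main fit. With DHT in sh_scramble it called 858 higher and 969 lower, against 840 and 995.

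**Figure D4:**
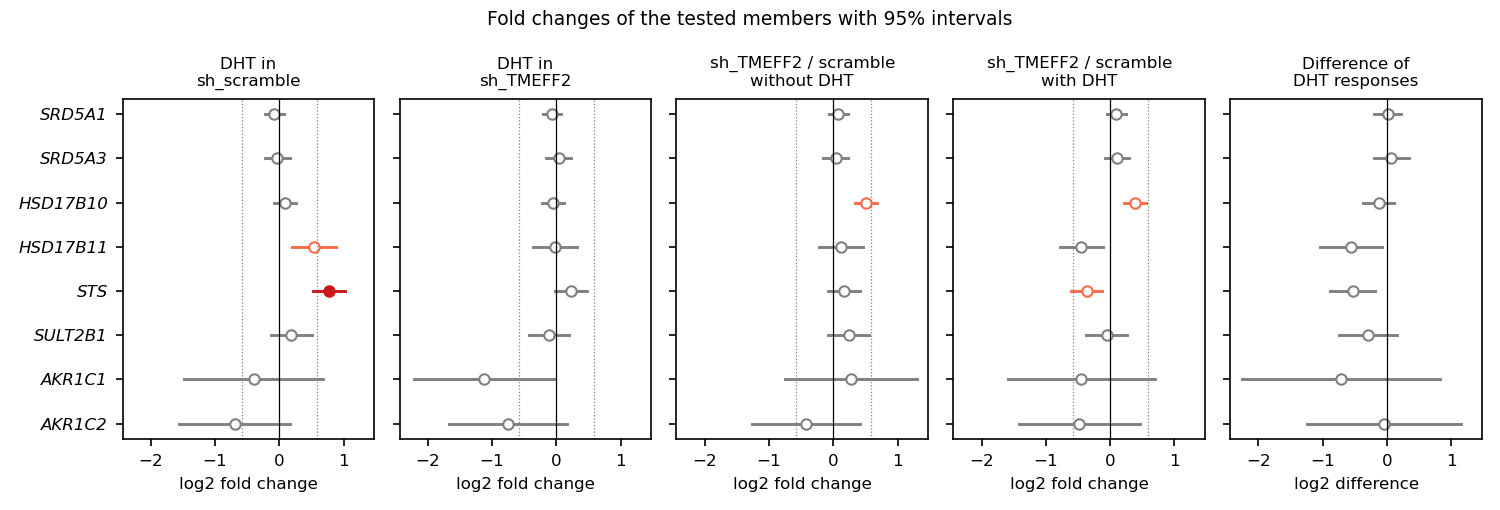
Log2 fold changes of the 8 tested genes (points) with 95% intervals (lines) in the 5 comparisons; dotted lines mark 1.5-fold in either direction, a filled red point is a call, an open light red point has an adjusted p of at most 0.05 below the fold limit, and grey points did not pass. STS with DHT in sh_scramble is the only call (log2 0.77), and the intervals of AKR1C1 and AKR1C2 are the widest.

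A wider list of 53 genes around these enzymes, in 5 groups, gives the setting, and 38 of them were tested. With DHT in sh_scramble, 6 of the 38 were called higher and 6 lower, beside 5.45% and 6.45% of all genes tested. With DHT in sh_TMEFF2, 2 were called higher and 1 lower, beside 3.28% and 1.60%. The 3 calls went to 1 with the 6 libraries of that comparison alone. The call that remained was of a higher gene, so the lower call, that of HSD17B14, was not kept there. With a mean above 5 CPM the 1 call left was also of a higher gene. That filter removed CYP11A1 and HSD17B14 (at most 2.51 and 4.33 CPM in a library), so they were not tested again. Between the lines 4 were higher and 0 lower in sh_TMEFF2 without DHT (0.298% and 0.272% of all genes), which went to 1 or 2 without a sh_scramble −DHT library. Calls over all genes fell too, from 46 higher and 42 lower to 14 and 18 without the first such library and to 15 and 19 without the second. With DHT, 4 of the list were higher and 3 lower in sh_TMEFF2 (3.03% and 3.74%). These 7 calls went to 4 without the first sh_TMEFF2 +DHT library. They also went to 4 with a mean above 5 CPM, a filter that removed HSD17B2, HSD17B6 and HSD17B14 from the test. The DHT response differed between the lines for 7, of which 3 were higher and 4 lower in sh_TMEFF2 (1.65% and 3.29%). The list was chosen with earlier results of these data known, so its counts are a description.

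Among 8 tested genes of precursor supply, DHT in sh_scramble raised 2 and lowered 3, beside 5.45% of all genes called higher and 6.45% lower. CYP11A1, the enzyme that opens the pathway from cholesterol, rose 5.81-fold in sh_scramble, from 5.7, 7.1 and 7.2 counts to 32.7, 31.8 and 50.2. It was called higher in sh_TMEFF2 too, from 4.2, 2.0 and 3.9 counts, close to the floor, to 6.7, 27.8 and 32.0. CYB5A, a cofactor of androgen synthesis and of other oxidations, rose 1.56-fold in sh_scramble. FDX1 and FDXR, which carry electrons to mitochondrial steroid hydroxylases, fell 1.53-fold and 1.72-fold there. STAR, the cholesterol carrier, was called lower there, with 0.382, 0.504 and 0.734 CPM without DHT and 0.0830, 0.0816 and 0.162 CPM with it. The DHT libraries held 1.6, 1.7 and 3.2 counts, at about the floor of 3, so the size of its fall is uncertain. In sh_TMEFF2 the log2 differences of FDX1 and FDXR were −0.15 and −0.05 and did not pass, STAR had 2.4 to 10.6 counts and did not pass, and CYB5A was 1.20-fold higher with an adjusted p of 0.00750, under the fold limit. CYP17A1, HSD3B2 and CYP19A1 were not kept by the filter on low counts.

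Among 8 tested genes of the wider 17beta-hydroxysteroid dehydrogenase group, HSD17B2, which inactivates testosterone, rose 2.07-fold with DHT in sh_scramble and was 2.07-fold lower in sh_TMEFF2 than in sh_scramble with DHT. HSD17B4, a peroxisomal enzyme of fatty acid oxidation that also inactivates estradiol, rose 1.60-fold with DHT in sh_scramble, from 319 ± 21.5 to 511 ± 25.6 CPM (SD, n = 3). In sh_TMEFF2 it was 1.20-fold higher with DHT (adjusted p = 0.0126), and with DHT it was 1.46-fold lower in sh_TMEFF2 than in sh_scramble (adjusted p = 5.4e-05), both under the fold limit. HSD17B14 fell with DHT in both lines, 1.68-fold in sh_scramble and 2.00-fold in sh_TMEFF2, and was 1.74-fold lower in sh_TMEFF2 than in sh_scramble with DHT. HSD17B6, which oxidises the diol back to DHT, was 1.98-fold higher in sh_TMEFF2 than in sh_scramble with DHT (adjusted p = 0.0481). HSD17B3 and HSD17B13 were not kept by the filter.

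None of the 7 tested genes among the other reductases and dehydrogenases, nor of the 6 in sulfation and sulfate uptake, was called in any of the 5 comparisons. At an unadjusted p of 0.05, 3, 0, 1, 1 and 0 of the 7 passed in the 5 comparisons (in the order given above), and 1, 3, 1, 0 and 0 of the 6, beside the 38.7%, 27.2%, 13.5%, 29.2% and 17.5% of all genes. SLCO2B1, a carrier of steroid sulfates, is 1 of the 3 with DHT in sh_TMEFF2 and the only 1 between the lines without DHT, and it rests on 1 column of 1 library (548.7 counts, against 3.0 in the library's other column). SRD5A2, AKR1C4, AKR1D1, DHRS9, HSD11B1, SULT1E1, SULT2A1 and SLC10A6 were not kept by the filter. Of the 9 tested genes of glucuronidation and hydroxylation, UGT2B11 and UGT2B28 rose with DHT in sh_scramble, 6.03-fold and 19.9-fold, and UGT2B15 and UGT2B17 fell 4.62-fold and 5.32-fold. UGT2B28 also rose in sh_TMEFF2, 3.63-fold. UGT2B10, UGT2B11, UGT2B15 and UGT2B17 were higher in sh_TMEFF2 than in sh_scramble without DHT, by 5.61-fold, 5.70-fold, 6.05-fold and 3.70-fold. These were the 4 calls of the whole list between the lines without DHT, and the list had 2 calls without the first or the third sh_scramble −DHT library and 1 without the second. With DHT, UGT2B10, UGT2B15 and UGT2B17 were higher there (6.91-fold, 16.8-fold and 15.3-fold) and UGT2B28 1.98-fold lower. These genes are close copies of each other, and their reads may be split in error. CYP3A4 and CYP7B1 were not kept by the filter.

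**Figure D5:**
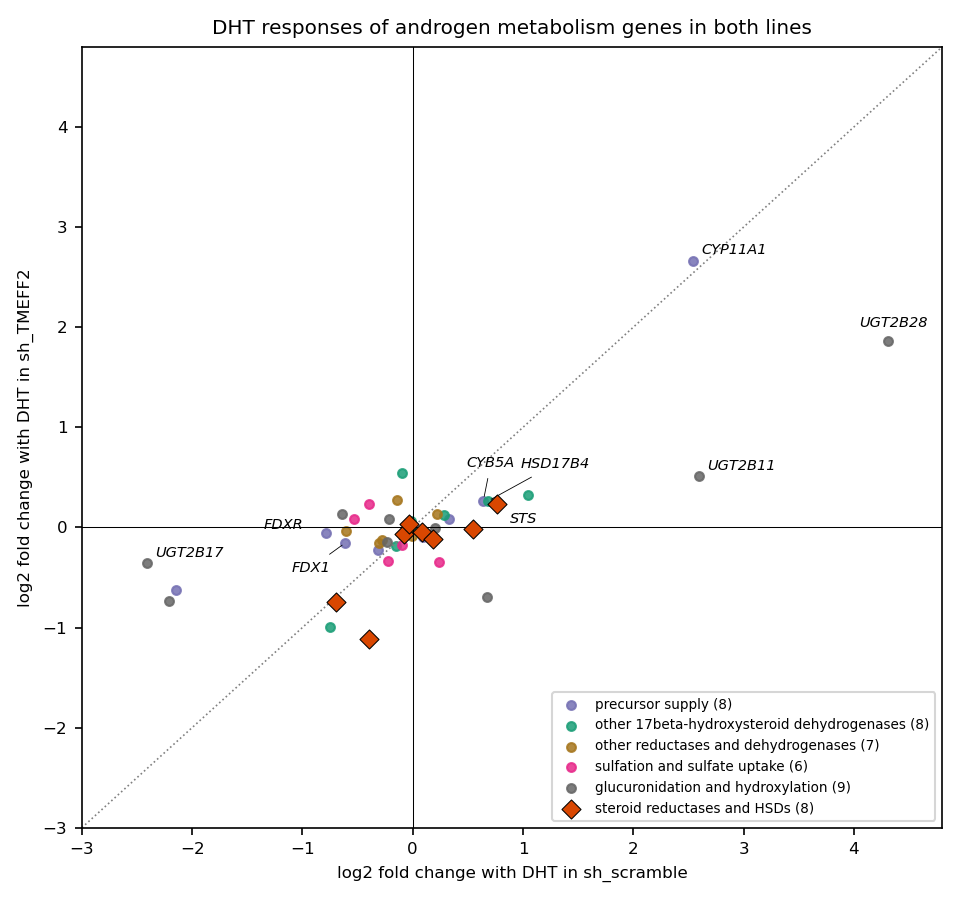
Log2 fold change with DHT in sh_TMEFF2 (vertical axis) against that in sh_scramble (horizontal axis) for the 8 tested enzymes (diamonds) and 38 other genes of androgen metabolism in 5 groups (dots); the dotted line marks equal responses. Named are STS, CYP11A1 and the genes whose responses differed between the lines; 7 of the 8 diamonds lie within 1 log2 unit of 0 on both axes, with AKR1C1 at −1.12 in sh_TMEFF2.

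The label of the line was checked against markers. All 9 luminal prostate genes listed were present in every library, the lowest value being 20.7 CPM for KLK2. Their summed level was 6796 to 7056 CPM in sh_scramble −DHT and 13630 to 14590 CPM in sh_scramble +DHT. In sh_TMEFF2 it was 4392 to 4895 CPM without DHT and 5345 to 6495 CPM with it, so no 2 groups overlapped. The luminal keratins KRT8 and KRT18 rose 2.54-fold and 2.20-fold with DHT in sh_scramble and did not pass in sh_TMEFF2. Their differences of the DHT responses passed, at log2 −1.49 and −1.07 (adjusted p = 8.4e-05 and 8.6e-05). Of 12 markers of basal, stromal, immune and endothelial cells, KRT5, CD3E and CDH5 had at most 1.0 count in every library, while COL1A1 (11.9 to 30.4 CPM), VWF (11.8 to 28.3 CPM), PTPRC (3.17 to 7.76 CPM) and CD68 (3.17 to 8.83 CPM) were measurable. The 12 summed to 43.7, 52.6 and 52.1 CPM in sh_scramble −DHT and to 37.5, 38.2 and 39.9 CPM in sh_scramble +DHT. In sh_TMEFF2 they summed to 63.1, 57.0 and 59.9 CPM without DHT and to 50.6, 46.4 and 56.7 CPM with it. The sum was lower with DHT in both lines and higher in sh_TMEFF2 than in sh_scramble, with no overlap, and COL1A1 or VWF was its most abundant gene in each library. Its members did not move as one. With DHT in sh_scramble, COL1A1, VWF and PTPRC fell 1.53-fold, 1.56-fold and 1.51-fold, while CD68 rose 1.89-fold (adjusted p = 0.00865). KRT14, a basal keratin, was called higher there too, with 0.0, 0.8 and 0.8 counts without DHT and 28.5, 14.7 and 19.3 with it. In sh_TMEFF2 COL1A1 fell 1.60-fold with DHT, and the log2 differences of VWF, PTPRC and CD68 were 0.09, −0.43 and 0.44 and did not pass. With DHT, VWF and PTPRC were 1.75-fold and 1.57-fold higher in sh_TMEFF2 than in sh_scramble (adjusted p = 0.0171 and 0.0332), and KRT14 was called lower, with 0.0, 8.9 and 2.5 counts (0.0249). COL1A1 was 1.28-fold higher and did not pass (0.0806), and neither did CD68 (0.527). Without DHT, COL1A1, PTPRC, CD68 and VWF did not pass (adjusted p = 0.136, 0.248, 0.711 and 0.921). The part of these markers, luminal or other, in the levels of STS and HSD17B10 was not tested. In bulk RNA, fewer cells of a kind and less RNA per cell cannot be told apart.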

How the data were processed

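RNA was extracted and sequenced as 75-base read pairs, per the labels. The authors deposited estimated counts per gene, made with kallisto 0.42.3 on the GRCh38 transcriptome and scaled by library size and mean transcript length. Each library had 2 columns, which were summed (columns not assigned: 0). The columns of a library differed by more than counting noise (median chi-square over its expectation 14.0, against 13.3 between replicates), and in 10 of 12 libraries the first column correlated best with its own second.

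Summed counts were rounded and fitted with edgeR 4.0.16 in R 4.3.3 (TMM, filterByExpr with a minimum count of 10, 12 libraries, 1 coefficient per group, quasi-likelihood test, Benjamini-Hochberg adjustment). All 10 enzymes are named, with TMEFF2, KLK3, FKBP5 and TMPRSS2, other listed genes that were called or not kept, and the 3 genes nearest to each called enzyme. The enzymes and lists were chosen with earlier results of these data known. The labels give 3 treatments from 2 transductions and no other separation, so p-values measure the spread between these libraries, which may be technical in part. Alternatives were DESeq2 1.42.0, limma-voom (limma 3.58.1), other scaling and filters, 1 column only, a replicate block, 6 libraries, and each library left out. The fit was tested on simulated data. Some results are not reported here. Positions are from GENCODE on GRCh38 and promoters from RefSeq.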

Additional observations from a re-analysis of the deposited data

Results flagged for a closer look

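The response to DHT differed between the lines by edgeR's interaction test for 7 of the other genes of androgen metabolism, given as the log2 response in sh_TMEFF2 minus that in sh_scramble. The value was 0.46 for FDX1 (adjusted p = 0.0175) and 0.73 for FDXR (0.00759), both of which fell with DHT in sh_scramble and were not called in sh_TMEFF2. It was −0.37 for CYB5A (0.0157) and −0.42 for HSD17B4 (0.0134), which rose with DHT in sh_scramble. Among the glucuronidation genes it was −2.08 for UGT2B11 (0.0318), −2.45 for UGT2B28 (0.00818) and 2.05 for UGT2B17 (0.0318), of which UGT2B28 rose in both lines. STS (−0.53, adjusted p = 0.0809) and HSD17B11 (−0.56, adjusted p = 0.194) did not pass this test.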

How the results depend on the processing

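STS was called with DHT in sh_scramble under all 22 alternatives (log2 0.70 to 0.80). Calls among the 8 enzymes for DHT in sh_scramble ranged from 1 to 2 with a library left out. For the difference of the responses they ranged from 0 to 1. The 1 was STS, under DESeq2, under the replicate block and without the third sh_TMEFF2 −DHT library. DESeq2 and the replicate block also called more of the 15419 tested genes for that difference. They called 479 higher and 726 lower with DESeq2 and 432 and 688 with the block, against 254 and 507 in the main fit. Calls among the other genes of androgen metabolism for DHT in sh_TMEFF2 went from 3 to 1 with 6 libraries. They also went to 1 with a mean above 5 CPM, where CYP11A1 and HSD17B14 were not tested. With a library left out they ranged from 1 to 4 between the lines without DHT (2 without sh_scramble −DHT library 1 or 3, 1 without library 2). With DHT they went from 7 to 4 without the first sh_TMEFF2 +DHT library. They also went to 4 with a mean above 5 CPM, where HSD17B2, HSD17B6 and HSD17B14 were not tested.

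Changes of sign concerned uncalled values, all within 0.12 of 0 in the main analysis except those of AKR1C1 (0.28 without DHT and −0.45 with DHT between the lines). With 1 column only, HSD17B11 was 0.057 and HSD17B10 0.005 with DHT in sh_TMEFF2, SRD5A3 −0.028 and HSD17B11 −0.086 between the lines without DHT, and SRD5A1 −0.001 for the difference of the responses. With library size only, SULT2B1 was 0.002 between the lines with DHT and AKR1C2 0.017 for the difference. With each library left out in turn, the log2 difference with DHT in sh_scramble of SRD5A3 was −0.057 to 0.003, and with DHT in sh_TMEFF2 that of SRD5A3 was −0.019 to 0.138 and of HSD17B11 −0.147 to 0.124. Between the lines without DHT, SRD5A3 was −0.015 to 0.084, HSD17B11 −0.026 to 0.259 and AKR1C1 −0.108 to 0.585, and with DHT, AKR1C1 was −0.648 to 0.083 and SULT2B1 −0.121 to 0.042. For the difference of the responses, SRD5A1 was −0.045 to 0.082 and AKR1C2 −0.385 to 0.325.

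Replicate numbers are shared only as labels. Deviations of same-numbered libraries correlated at −0.002 to 0.169 (median 0.072, 18 pairs). Those of libraries with different numbers correlated at −0.14 to 0.066 (median −0.028, 36 pairs). For each of the 12 libraries the mean correlation over partners was highest for its own number, a hint from the data and not from the design. The replicate block changed no call of an enzyme other than that of STS for the difference. At these depths the 95% intervals of AKR1C1 and AKR1C2 lay within 1.5-fold in 0 of the 5 comparisons, and HSD3B1 and AKR1C3 have no interval.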

Other observations

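SLCO2B1, a carrier of steroid sulfates on the list of sulfation and sulfate uptake, stood at 26.5 CPM in the first sh_TMEFF2 −DHT library and at no more than 0.880 CPM in the other 11. Its estimated counts in that library were 548.7 in the first of the 2 columns and 3.0 in the second.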
